A study of Mus musculus with 24 samples.

Results

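Immediate early genes were followed in RNA-seq of the mouse cerebellum as a set of 10 listed activity-induced genes, Fos, Fosb, Junb, Egr1, Egr3, Arc, Npas4, Nr4a1, Ier2 and Dusp1, out of 54232 genes in the count files. The genes were chosen by name. Their symbols were matched to Ensembl identifiers through the GENCODE mouse annotation, and no measured value entered the choice rule. All 10 were found and all 10 passed the filter on low counts, which left 22502 genes for testing. The study used CRISPR/Cas9 in mice to replace the phosphorylated serine S776 of ATXN1, the protein whose expanded glutamine tract causes spinocerebellar ataxia type 1 (SCA1), by alanine (S776A).

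Cerebella of 24 mice aged 6 weeks were sequenced, 1 library per mouse. The 8 WT mice carried unexpanded Atxn1 (Atxn1[2Q]) on both alleles. The 4 SCA1 mice carried a knock-in allele with an expanded CAG repeat over an unedited Atxn1[2Q] allele. In the 4 SCA1 S776A mice the alanine was on the expanded allele only, and in the 4 S776A double mice, labelled double, it was on the expanded and the unexpanded allele. The 4 WT S776A homozygous mice, labelled 2q-s776a, carried the alanine on both unexpanded alleles and no expansion. Knock-in alleles are expressed from the endogenous locus in every cell that uses it, and the lines were kept on a C57BL/6J background. The labels give neither the sex of the mice nor the hour at which tissue was taken.

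Between 62163600 and 88430180 fragments per library fell on genes, with a median of 74852158.5. The libraries formed 2 sets by their shares of unmapped, multimapping, no-feature and ambiguous fragments, which were taken as the 2 sequencing batches that the study's methods mention. No-feature fragments made up 9.52 to 12.0% in the 16 libraries of the first batch and 5.23 to 6.31% in the 8 libraries of the second. The first batch held WT mice 1 to 4 with the SCA1, SCA1 S776A and S776A double mice, and the second held WT mice 5 to 8 with the WT S776A homozygous mice, so each genotype had 4 WT mice from the same batch to be set against. Markers of cerebellar neurons were high in all libraries (Gabra6, a granule cell receptor subunit, had a median of 344 CPM per kb and Calb1, a Purkinje cell calcium-binding protein, 239 CPM per kb). Summed CPM of 4 markers of the choroid plexus, which adjoins the cerebellum, ran from 19.6 to 5106.

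Immediate early genes are transcribed within minutes of a stimulus from factors that are already present in the cell, without new protein synthesis. In neurons, calcium entry and kinase signaling act on CREB, serum response factor and their partners at the promoters of these genes, and their short-lived mRNAs are used as a record of recent activity, handling or stress. The listed genes cover the AP-1 subunits (Fos, Fosb, Junb), zinc finger transcription factors (Egr1, Egr3), other transcription regulators (Npas4, Nr4a1, Ier2), a postsynaptic effector (Arc) and a feedback phosphatase (Dusp1).

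Levels between genes were compared as CPM per kilobase of annotated exon (CPM being counts scaled to a common library size with TMM factors, here divided by the length of the merged exons), as mean ± SD over 24 mice. Dusp1, the phosphatase that inactivates MAP kinases, had the highest mean level at 18.6 ± 7.66 CPM per kb. Ier2, a nuclear protein induced early after stimulation, followed at 14.9 ± 2.91 CPM per kb and Fos at 14.2 ± 8.82 CPM per kb. These 3 levels lay close together, since Dusp1 was above Ier2 in 16 of 24 mice and Ier2 was above Fos in 11 of 24. Egr1 (8.72 ± 1.69 CPM per kb), Nr4a1 (7.83 ± 3.53), Arc (6.20 ± 1.01) and Junb (5.68 ± 1.19 CPM per kb) came next. Among these genes the higher of 2 neighbours exceeded the lower in 15 to 16 of 24 mice, so the order of neighbours did not hold beyond the spread. Genes farther apart in the order were not counted against each other. Fos was above Egr1 in 18 of 24 mice. A clear step separated them from Npas4 at 0.998 ± 0.668 CPM per kb, which was below Junb in 24 of 24 mice. Fosb (0.196 ± 0.124 CPM per kb) was below Npas4 in 23 mice and Egr3 (0.0920 ± 0.0285 CPM per kb) was below Fosb in 22, so at the low end the order was stable.

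In the GRCm38.p6 build, Fos lies at chr12:85473890-85477273, Fosb at chr7:19302696-19310051, Junb at chr8:84974484-84978718 and Nr4a1 at chr15:101254269-101274795. Npas4 lies at chr19:4984355-4990316, Dusp1 at chr17:26505590-26562128, Ier2 at chr8:84661331-84662852, Egr3 at chr14:70077203-70082614 and Arc at chr15:74669083-74672570. Junb shares 173 exonic bases, 7.52% of its exons, with Prdx2 on the opposite strand. The counts used here do not separate strands, so the overlap adds an uncertainty to the level of Junb. Dusp1 shares 11 exonic bases with overlapping annotations, and the other 8 genes share none.

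The 10 genes differed widely in how far mice of the same genotype and batch lay apart. Spread was measured as the SD of log2 CPM about the mean of each genotype in each batch. Npas4, a neuron-specific transcription factor induced by calcium entry, had the largest residual SD at 0.81 log2 units, the 98.8th percentile of all genes tested. Fos followed at 0.78 (98.5th percentile) and Fosb at 0.65 (96.4th percentile). The feedback phosphatase Dusp1 (0.54, 91.3rd percentile) and the orphan nuclear receptor Nr4a1 (0.51, 88.9th percentile) came next. The zinc finger factors Egr3 and Egr1 had residual SDs of 0.35 and 0.29, Junb 0.28 and Ier2 0.24. Arc, which regulates AMPA receptor trafficking at synapses, had the smallest at 0.19, the 50.4th percentile. The median residual SD of the 10 genes was 0.43, against 0.19 for the 22502 genes tested.

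Because low counts alone widen the spread, the biological coefficient of variation (BCV) that edgeR fitted to each gene was set beside the trend for genes of the same abundance. Fos had a BCV of 50.4%, 5.15 times the trend, at the 99.8th percentile of this ratio. The ratio was 3.80 for Dusp1, 3.41 for Nr4a1, 3.26 for Npas4, 2.09 for Fosb and 1.99 for Egr1. Ier2 (1.50), Junb (1.47) and Arc (1.14) lay closer to the trend, though still at the 94th, 94th and 83rd percentile of this ratio. Egr3 was below it at 0.853, with 14 to 56 fragments per library and a counting error of 18.3%, so its spread between mice was no wider than that of other genes at its level. The median ratio was 2.04 for the 10 genes and 0.834 for all genes tested.

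**Figure D1:**
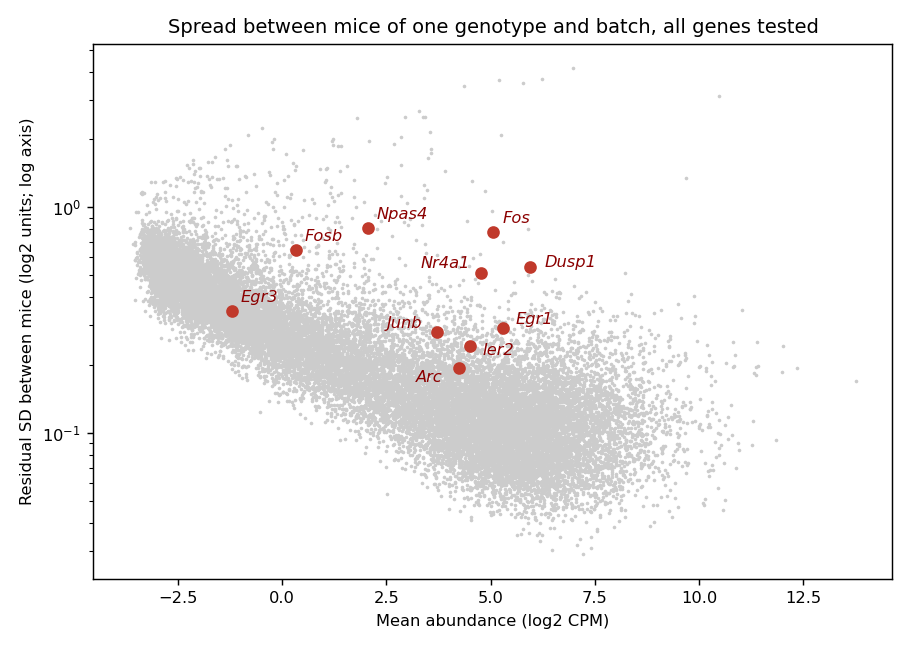
Residual SD of log2 CPM between mice of one genotype and batch (vertical axis, log2 units on a log axis) against mean abundance (horizontal axis, log2 CPM). Grey points are all 22502 genes tested and red points the 10 immediate early genes. Fos, Npas4, Dusp1, Nr4a1 and Fosb stand above the cloud of genes of like abundance, and Egr3 (SD 0.35) and Arc (SD 0.19) lie within it.

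The per-mouse values show how wide this spread was. Fos ran from 5.24 CPM in WT S776A homozygous mouse 2 to 96.5 CPM in SCA1 mouse 2, an 18.4-fold range with a median of 30.1 CPM over 24 mice. The range was 13.2-fold for Npas4 (0.826 to 10.9 CPM), 9.57-fold for Fosb (0.393 to 3.76 CPM) and 7.74-fold for Nr4a1 (8.49 to 65.7 CPM). In all 4 of these genes SCA1 mouse 2 was the highest and WT S776A homozygous mouse 2 the lowest of the 24 animals. Dusp1 ran from 29.8 to 121 CPM and Egr3 from 0.197 to 0.749 CPM. Junb (8.43 to 19.5 CPM), Ier2 (16.0 to 35.1), Egr1 (25.7 to 53.5) and Arc (13.5 to 24.6 CPM) stayed within ranges of 1.83- to 2.32-fold. WT mouse 7 had the highest Dusp1, Ier2, Egr1 and Arc of all animals, and WT mouse 4 the lowest Dusp1, Ier2 and Junb.

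**Figure D2:**
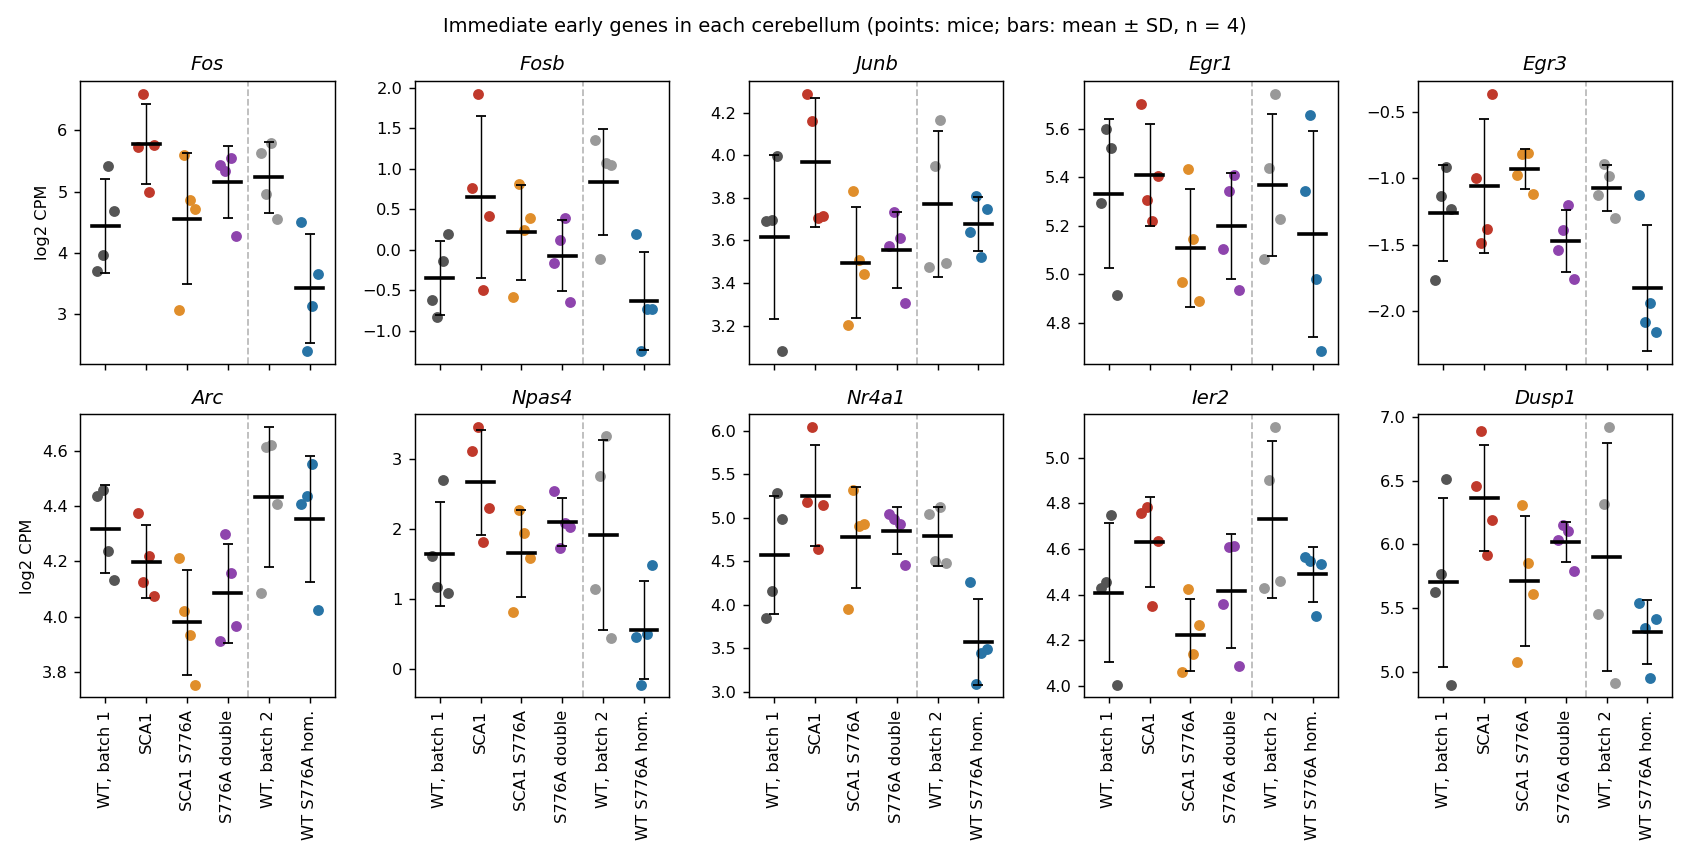
Level of each immediate early gene (vertical axis, log2 CPM, scaled separately per gene) in the 6 groups of 4 mice. Points are mice, the horizontal bar is the mean and the whiskers are 1 SD. The dashed line separates the first batch (left) from the second (right). In the first batch each genotype overlaps the WT mice for all 10 genes, and in the second batch the homozygous mice lie below the 4 WT mice for Fos and Nr4a1.

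Mice that were high for one gene tended to be high for others. The relation was measured over 24 mice in the 45 pairs of genes, as the correlation of log2 CPM after removal of the mean of each genotype in each batch, with two-sided permutation tests (100000 shuffles within genotype and batch) and Benjamini-Hochberg adjustment over the 45 pairs. In 42 pairs Pearson's r was above 0, with a median of 0.385, and 16 pairs had an adjusted permutation p under 0.05. By Spearman's rho 16 pairs also passed. The median r was 0.470 in the first batch, where 40 pairs were above 0, and 0.352 in the second, where 36 were. Without the 2 mice farthest from the median of the gene on the x axis the median was 0.410.

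The pairs that passed the test fell on different genes. Fos and Nr4a1 had the highest correlation, with r = 0.950 and rho = 0.937 (adjusted permutation p = 0.000112 and 0.000375), and r was 0.953 in the first batch, 0.958 in the second and 0.944 without the 2 farthest mice. Fosb followed both of them, with r = 0.851 to Nr4a1 (rho = 0.877, adjusted permutation p = 0.00036 and 0.000375) and r = 0.794 to Fos (rho = 0.850, adjusted permutation p = 0.000525 and 0.000375). Without the 2 farthest mice these values were 0.813 and 0.759. Within the batches r for Fosb and Nr4a1 was 0.867 and 0.819, and for Fos and Fosb 0.834 and 0.704. Mice with much Fos mRNA for their genotype and batch were thus those with much Nr4a1 and Fosb mRNA.

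Junb, Ier2 and Dusp1 varied together as closely. The value for Junb and Ier2 was r = 0.914 (rho = 0.888, adjusted permutation p = 0.000112 and 0.000375), for Junb and Dusp1 r = 0.897 (rho = 0.886, adjusted permutation p = 0.000112 and 0.000375) and for Ier2 and Dusp1 r = 0.893 (rho = 0.877, adjusted permutation p = 0.000112 and 0.000375). Within batches these 3 values were between 0.853 and 0.975, and without the 2 farthest mice between 0.868 and 0.902. The smallest unadjusted p that the permutations could give was 1e-05. Npas4 followed Dusp1 (r = 0.857, rho = 0.800, adjusted permutation p = 0.00109 and 0.0034, 0.858 and 0.864 within the batches, 0.775 without the 2 farthest mice), and its r was 0.737 to Junb and 0.701 to Ier2 (rho = 0.741 and 0.663). Egr1 had r = 0.709 to Junb, 0.706 to Ier2 and 0.609 to Dusp1, with adjusted permutation p from 0.00135 to 0.0136 (rho = 0.733, 0.742 and 0.643).

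Between these sets of genes the relation was looser. The r of Fos was 0.592 to Npas4, 0.600 to Dusp1 and 0.493 to Ier2 (rho = 0.561, 0.633 and 0.498, adjusted permutation p of r = 0.0139, 0.0136 and 0.0466), and that of Fosb to Npas4, Dusp1, Junb and Ier2 was 0.186 to 0.254, none of which passed the test. In the second batch those 4 values for Fosb were below 0, from -0.404 to -0.162, and in the first batch they were 0.434 to 0.641. The pair of Fos and Ier2 did not pass by rank (adjusted permutation p of rho = 0.058). Arc passed with Egr1 only (r = 0.627, rho = 0.565, adjusted permutation p = 0.0202 and 0.0433), and its r was -0.299 to Fos, -0.280 to Fosb and -0.322 to Nr4a1, the only negative values of the 45. Egr3 passed with no gene by Pearson's r and with Egr1 by rank (rho = 0.538, adjusted permutation p = 0.0454).

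**Figure D3:**
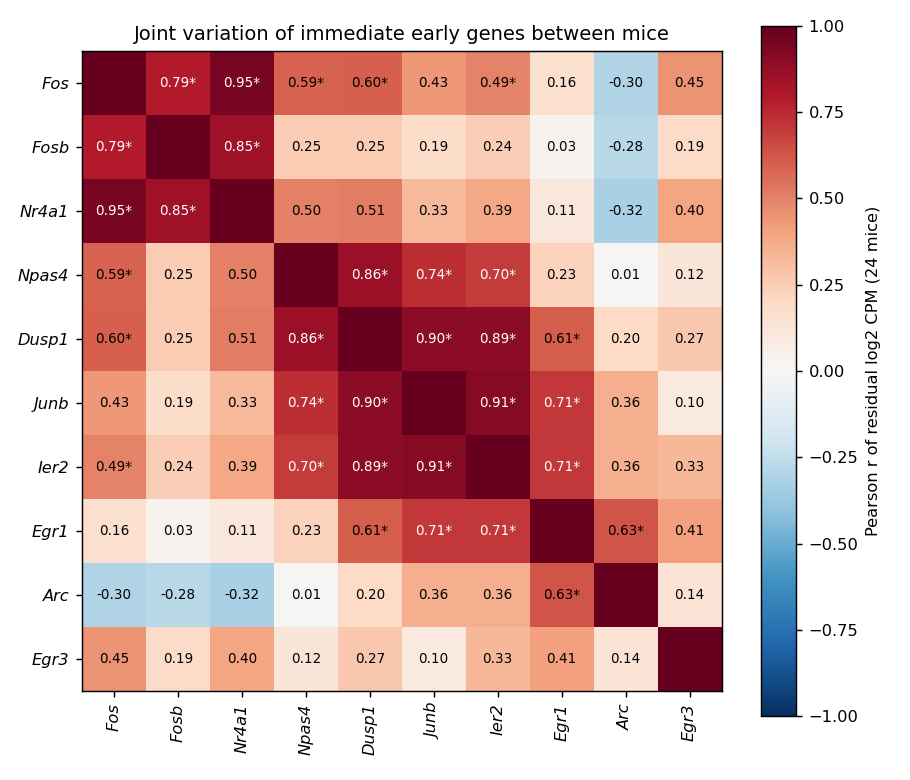
Pearson's r of the residual log2 CPM over 24 mice for each pair of immediate early genes, in colour from -1 (blue) to 1 (red) and as numbers. An asterisk marks an adjusted permutation p under 0.05. Fos, Fosb and Nr4a1 form a block of 0.79 to 0.95, Npas4, Dusp1, Junb and Ier2 a block of 0.70 to 0.91, and Arc is asterisked with Egr1 only.

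The first principal component of the standardized residuals held 50.3% of their variance and the second 25.3%. Loadings on the first component were highest for Dusp1 (0.41), Ier2 (0.40) and Junb (0.38) and lowest for Arc (0.07). By the mean standardized residual of the 10 genes, WT mouse 7 was the highest (1.09) and was above its group mean in 10 of 10 genes. WT mouse 3 (0.98, 9 of 10 genes) and SCA1 S776A mouse 2 (0.89, 10 of 10 genes) followed. SCA1 mouse 3 was the lowest (-0.94, 1 of 10 genes), and WT mouse 8 (-0.82), SCA1 S776A mouse 1 (-0.81) and S776A double mouse 4 (-0.79, 0 of 10 genes) were near it. Since group means were removed, every group holds mice on both sides of 0.

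**Figure D4:**
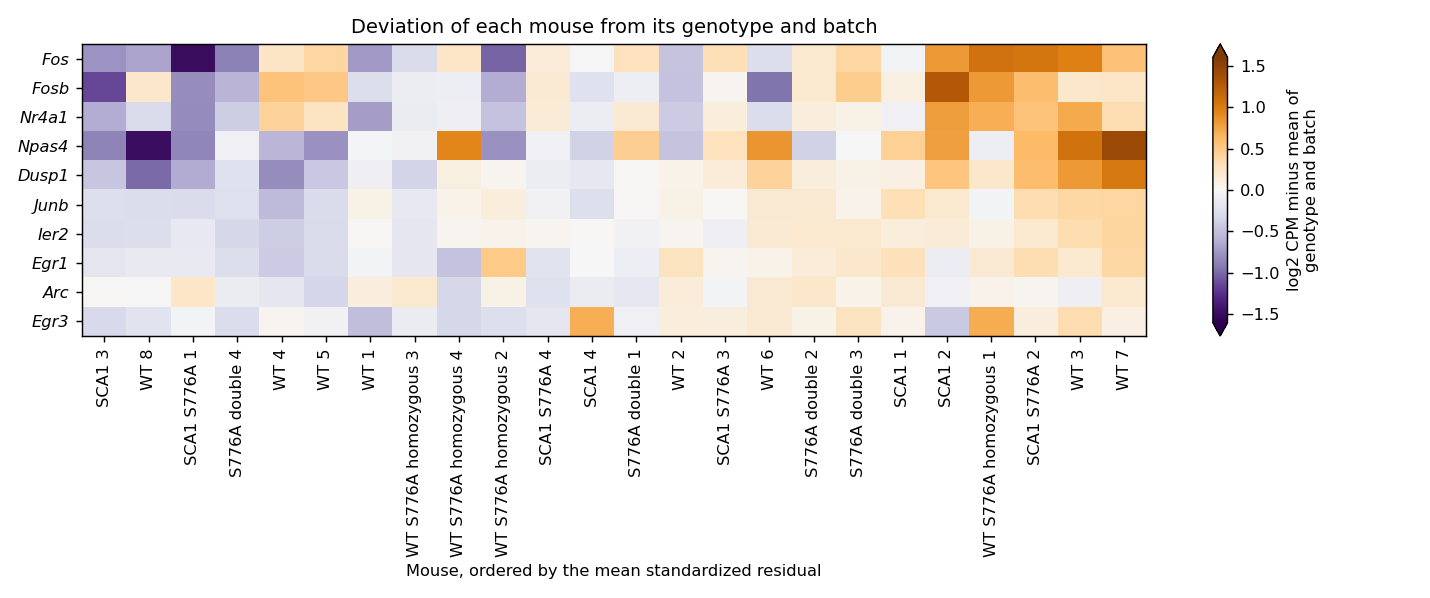
Deviation of each mouse (columns, ordered by the mean standardized residual of the 10 genes) from the mean of its genotype and batch, in log2 CPM (colour; orange above, purple below). The 4 mice at the left end, from SCA1 mouse 3 to S776A double mouse 4, are below their group mean in at least 9 of 10 genes, and WT mouse 7 at the right end is above it in all 10.

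Promoter sequence was examined because genes of the set varied together. RefSeq promoter windows (GRCm38.p6, 250 bases before the annotated start) were at hand for 6 of the 10 genes, Fos, Fosb, Junb, Npas4, Nr4a1 and Dusp1. The core of the cAMP response element, TGACG or on the other strand CGTCA, was in 6 of 6 windows, against 17.8% of the 32851 promoters in the table. The whole palindromic element TGACGTCA, which contains both cores, was in the Dusp1 window, 143 bases before the start, and in 1.55% of all promoters. A TATA box (TATAAA, read on the strand of the gene only) was in the Fos window, 33 bases before the start, against 7.59% of all, and an EGR site (GCGTGGGCG or GCGGGGGCG, both strands) in those of Fosb and Nr4a1, against 3.06%. The CArG box bound by serum response factor was in 0 of 6 windows and in 1.47% of all. These matches describe letters in a short window, and sites farther from the start were not searched. Whether the matches bear on the joint variation was not tested. Shown here are the 200 bases before the start for both genes of the closest pair, Fos (chr12:85473690-85473889, plus strand) and Nr4a1 (chr15:101266646-101266845, plus strand), and for the closest pair with windows in the other block, Junb (chr8:84978749-84978948, minus strand) and Dusp1 (chr17:26508473-26508672, minus strand), 5′ to 3′ along the gene, with TGACG and CGTCA in capitals.
Fos: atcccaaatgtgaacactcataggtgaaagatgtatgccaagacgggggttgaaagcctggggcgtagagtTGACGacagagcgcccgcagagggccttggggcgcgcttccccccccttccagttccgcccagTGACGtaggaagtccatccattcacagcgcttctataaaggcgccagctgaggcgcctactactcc
Nr4a1: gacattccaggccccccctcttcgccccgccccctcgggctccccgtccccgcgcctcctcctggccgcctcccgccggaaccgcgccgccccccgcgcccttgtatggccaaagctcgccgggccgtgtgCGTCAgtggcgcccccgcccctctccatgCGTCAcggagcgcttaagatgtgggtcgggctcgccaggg
Junb: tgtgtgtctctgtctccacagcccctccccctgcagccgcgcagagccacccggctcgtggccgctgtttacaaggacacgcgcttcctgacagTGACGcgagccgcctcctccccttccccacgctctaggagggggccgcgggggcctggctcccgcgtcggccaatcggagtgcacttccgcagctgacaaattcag
Dusp1: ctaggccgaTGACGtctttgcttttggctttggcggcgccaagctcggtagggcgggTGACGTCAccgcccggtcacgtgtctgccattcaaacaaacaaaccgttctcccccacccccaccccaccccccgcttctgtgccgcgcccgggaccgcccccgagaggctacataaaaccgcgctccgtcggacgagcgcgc

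The capitals lie 129 and 66 bases before the start in Fos, 69 and 40 bases before it in Nr4a1, 106 bases before it in Junb, and 191, 143 and 140 bases before it in Dusp1.

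The comparison of SCA1 with WT mice asked whether the expanded allele goes with another level of these genes at 6 weeks. Fos had 52.9, 96.5, 32.0 and 54.0 CPM in SCA1 mice 1 to 4 and 13.0, 15.7, 42.5 and 25.6 CPM in WT mice 1 to 4. Fosb had 1.67, 3.76, 0.684 and 1.31 CPM in SCA1 mice and 0.624, 0.536, 0.884 and 1.11 CPM in WT mice. Npas4 had 8.66, 10.9, 3.48 and 4.88 CPM against 3.03, 2.22, 6.49 and 2.09 CPM. In Fos and Fosb 3 of 4 SCA1 mice were above all of WT mice 1 to 4. SCA1 mouse 3 lay within the range of these WT mice in all 3 genes. WT mice of the second batch reached 55.1 CPM of Fos and 2.52 CPM of Fosb, above all SCA1 mice but mouse 2.

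By the quasi-likelihood test in edgeR, none of the 10 genes was called in SCA1 mice at a Benjamini-Hochberg adjusted p under 0.01 with an absolute log2 fold change over 0.5, the study's thresholds, and 0.173% of all genes were. The log2 fold change was 1.28 ± 0.53 (SE) for Fos (adjusted p = 0.509), 1.23 ± 0.44 for Fosb (adjusted p = 0.388) and 1.02 ± 0.56 for Npas4 (adjusted p = 0.675). Nr4a1 had a log2 fold change of 0.66 ± 0.35 and Dusp1 of 0.59 ± 0.38, and Junb, Egr3, Ier2 and Egr1 lay between 0.07 and 0.34. Arc had -0.12 ± 0.13. The fitted value was above 0 in 9 of 10 genes, with a median of 0.47 against 0.00 for all genes, and 2 genes (Fos and Fosb) had an unadjusted p under 0.05, as did 8.25% of all genes. Many of the 10 genes varied together between mice, so these counts do not stand for separate observations. No gene of the set had groups that did not overlap, against 8.76% of all. Without SCA1 mouse 2 the log2 values were 0.93 for Fos, 0.62 for Fosb, 0.71 for Npas4 and 0.31 for Nr4a1. Against all 8 WT mice, with no batch term, they were 0.88 for Fos, 0.47 for Fosb, 0.71 for Npas4 and 0.59 for Nr4a1. DESeq2, and ComBat-seq before DESeq2, called 0 of the 10 genes as well. Purkinje cell markers summed to 4752 to 5349 CPM in SCA1 mice and 6317 to 7299 CPM in WT mice 1 to 4, inhibitory interneuron markers to 716 to 805 and 839 to 948 CPM, and choroid plexus markers to 887 to 5106 and 20.2 to 1727 CPM. Their part in the values of the immediate early genes was not tested.

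The alanine on the expanded allele was examined against the same 4 WT mice. In SCA1 S776A mice 1 to 4, Fos had 8.37, 48.4, 29.0 and 26.1 CPM and Nr4a1 had 15.4, 39.8, 29.9 and 30.5 CPM, against 14.4, 17.8, 39.1 and 31.6 CPM of Nr4a1 in WT mice 1 to 4. Arc had 18.5, 16.2, 15.3 and 13.5 CPM in SCA1 S776A mice and 21.6, 22.0, 18.9 and 17.5 CPM in WT mice. Mouse 1 of this genotype was low and mouse 2 high in Fos and Nr4a1, so that the groups overlapped. In edgeR 0 of 10 genes were called, against 0.0133% of all, and no groups were separate, against 4.39% of all. The log2 fold changes were 0.21 ± 0.53 for Fos, 0.60 ± 0.45 for Fosb and 0.17 ± 0.36 for Nr4a1, and the median over the 10 genes was -0.05. Arc, at -0.33 ± 0.13, was the 1 gene with an unadjusted p under 0.05 (3.93% of all genes), and its adjusted p was 1. With each genotype set against all 8 WT mice and no batch term, Fosb had -0.16 in place of 0.60.

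S776A double mice, with the alanine on both alleles, were set against WT mice 1 to 4 as well. Fos had 43.3, 40.5, 46.7 and 19.5 CPM in these mice and 13.0, 15.7, 42.5 and 25.6 CPM in WT mice 1 to 4. Thus 2 double mice were above all of WT mice 1 to 4 and the other 2 were within their range. Dusp1 had 65.5, 71.2, 68.7 and 55.5 CPM, where WT mice 1 to 4 had 49.4, 54.5, 91.6 and 29.8 CPM of Dusp1. The 4 Dusp1 values of the double mice all lay inside the WT range. The test by edgeR called 0 of 10 genes, against 0.0267% of all genes, and 0 of 10 had an unadjusted p under 0.05, against 6.93%. Groups were separate in 0 of 10 genes and in 7.11% of all. The log2 fold change was 0.63 ± 0.52 for Fos (adjusted p = 0.813, 0.42 to 1.05 with each mouse left out), -0.23 ± 0.13 for Arc (adjusted p = 0.753) and between -0.25 and 0.33 for the other 8 genes, 5 of the 10 being above 0.

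Both edited genotypes were also set against SCA1 mice directly, as the study's question on rescue implies. For SCA1 S776A the log2 difference from SCA1 was -1.07 ± 0.53 in Fos, -1.07 ± 0.56 in Npas4, -0.48 ± 0.18 in Junb and -0.41 ± 0.16 in Ier2, and 9 of 10 genes were below 0 (median -0.48). Junb and Ier2 were the 2 genes with an unadjusted p under 0.05, against 4.35% of all genes. For S776A double mice the difference was -0.65 ± 0.52 in Fos, -0.96 ± 0.43 in Fosb and -0.43 ± 0.18 in Junb, and 10 of 10 were below 0 (median -0.45). Fosb and Junb had an unadjusted p under 0.05, against 3.64% of all genes. By edgeR 0 of 10 genes were called in either comparison, where 0.00444% and 0% of all genes were, and every adjusted p rounded to 1. These comparisons share the 4 SCA1 mice with each other and with the comparison of SCA1 with WT mice, so the values are not separate observations.

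In the second batch the WT S776A homozygous mice had the largest differences of the set. Fos had 22.6, 5.24, 8.73 and 12.6 CPM in homozygous mice 1 to 4 and 49.4, 31.2, 55.1 and 23.3 CPM in WT mice 5 to 8. Nr4a1 had 19.2, 8.49, 10.9 and 11.2 CPM against 32.8, 22.6, 34.7 and 22.3 CPM. For these 2 genes all 4 homozygous mice lay below all 4 WT mice. Fosb had 1.12, 0.393, 0.576 and 0.577 CPM against 2.52, 0.897, 2.07 and 2.03 CPM, and homozygous mouse 1 overlapped WT mouse 6. Npas4 had 1.35, 0.826, 1.38 and 2.76 CPM against 2.17, 6.74, 10.0 and 1.32 CPM, with WT mice 5 and 8 among the homozygous values. Egr3 had 0.432, 0.210, 0.233 and 0.197 CPM against 0.431, 0.511, 0.479 and 0.380 CPM, again with only homozygous mouse 1 inside the WT range.

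The log2 fold change of homozygous over WT mice was -1.69 ± 0.54 for Fos, -1.69 ± 0.58 for Npas4, -1.49 ± 0.45 for Fosb, -1.18 ± 0.36 for Nr4a1 and -0.74 ± 0.27 for Egr3, and the Benjamini-Hochberg adjusted p of edgeR was 0.485 for each of them. In linear terms Fos stood at 0.309 and Nr4a1 at 0.443 times the WT level. Dusp1 had -0.77 ± 0.38 and Ier2 -0.27 ± 0.16, and Egr1 (-0.18), Junb (-0.12) and Arc (-0.08) had fold changes smaller than their SE. All 10 fitted values were below 0 (median -0.76, against 0.01 for all genes). None was called, and 0% of all genes were. The 5 genes Fos, Fosb, Npas4, Nr4a1 and Egr3 had an unadjusted p under 0.05, 50% of the set against 9.98% of all genes, and the groups were separate in Fos and Nr4a1, 20% of the set against 2.64% of all. Since Fos, Fosb and Nr4a1 varied together between mice, these counts do not stand for separate observations.

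The adjusted p values of this comparison depended on how the batch was treated. With ComBat-seq and then DESeq2, the study's procedure, adjusted p was 0.0279 for Fosb (log2 -1.48), 0.0286 for Nr4a1 (-1.19), 0.0399 for Npas4 (-1.75) and 0.0568 for Fos (-1.43), so 3 genes were under 0.05 and 0 under 0.01. This procedure called more of all genes in general. At the study's thresholds it called 4 of 22279 here, where the main fit called 0, and 127 in SCA1 mice, where the main fit called 39. The share of all genes under 0.05 is not given here, so the 3 genes cannot be set against it. Without a batch term, against all 8 WT mice, Nr4a1 had an adjusted p of 0.0323 (log2 -1.11) and the other 9 genes were above 0.05. With the batch as a term in DESeq2 the lowest adjusted p was 0.38, and with the mice of the second batch alone it was 0.777. Leaving out homozygous mouse 1, the highest of its group in Fos, Fosb and Nr4a1, gave -2.18 for Fos, -1.88 for Fosb and -1.48 for Nr4a1, with adjusted p between 0.126 and 0.137. Leaving out WT mouse 7 gave -1.50 for Fos, -1.06 for Nr4a1 and -1.12 for Npas4. Summed CPM of the choroid plexus markers ran from 22.3 to 917 in homozygous mice and from 530 to 2724 in WT mice of this batch, and the mitochondrial share reached 6.73% in 1 homozygous library. Their part in the result was not tested.

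**Figure D5:**
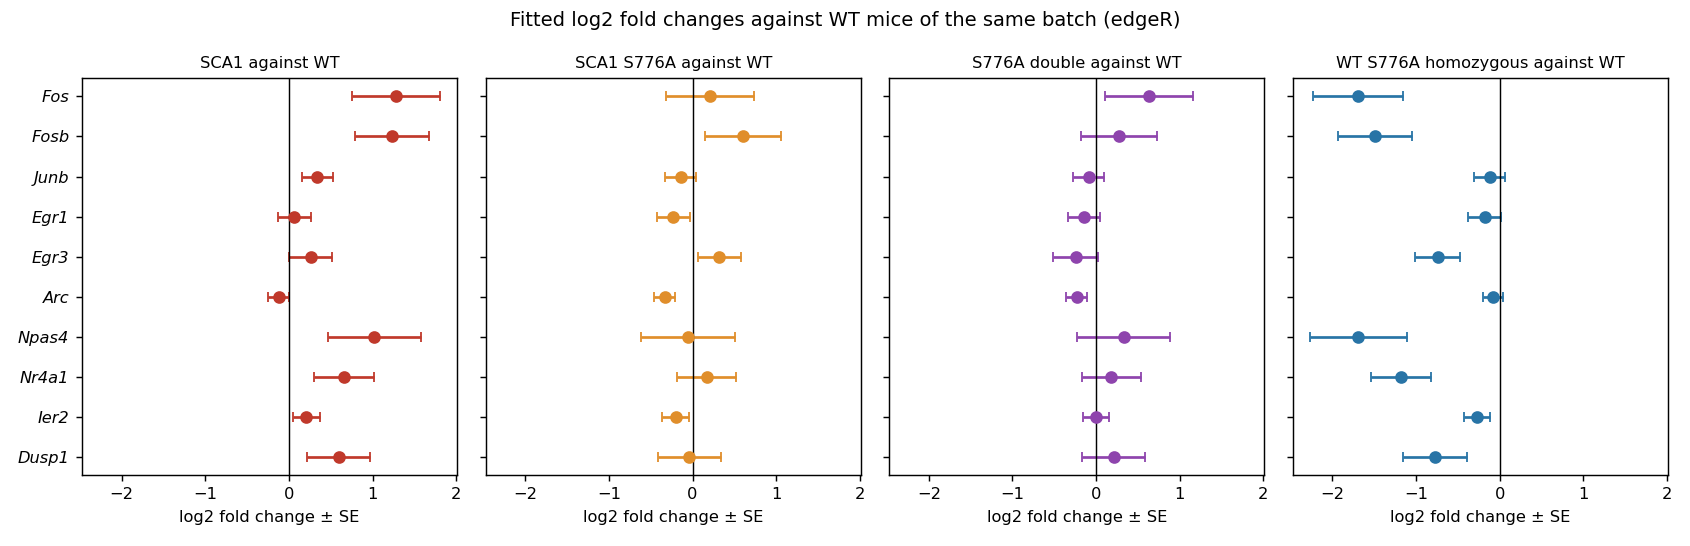
Fitted log2 fold change with its SE (horizontal axis, log2 scale, edgeR) of the 10 immediate early genes in each genotype relative to 4 WT mice of the same batch. Points are fitted values and the bars 1 SE. SCA1 mice have 9 values above 0 (Fos 1.28), WT S776A homozygous mice 10 values below 0 (Fos -1.69), and the SCA1 S776A and S776A double mice values on both sides of 0 (Fos 0.21 and 0.63). None was called, and the first 3 panels share the same WT mice.

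The WT mice of both inferred batches were compared to show how far these genes differed between them. The batches hold different mice, so sequencing and animals cannot be told apart here. WT mice 5 to 8 had a log2 level of Fosb 1.25 ± 0.44 above that of WT mice 1 to 4 (edgeR, adjusted p = 0.0265), of Fos 0.72 ± 0.52 above (adjusted p = 0.283) and of Npas4 0.55 ± 0.55 above (adjusted p = 0.442). All 10 values were above 0, with a median of 0.23, and as many of these genes varied together they are not separate observations. None of the 10 was called, against 17.6% of all genes, 2 (Fosb and Ier2) had an unadjusted p under 0.05, against 51.9%, and 0 had separate groups, against 46.7%. Shares of the set were thus below those of all genes. The median BCV was 27.0% for the 10 genes and 12.5% for all genes, and with a wider spread a given difference is called less often. The lower shares therefore do not show that these genes differed less between the batches. In DESeq2 Fosb was again the 1 gene with an adjusted p under 0.05 (0.0179).

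Other genes of the same response were examined in the same comparisons. Of 40 other early and activity-induced genes, all tested, 0 were called by edgeR in any of the 6 genotype comparisons. Of all genes 0 to 0.173% were called in these, so a count of 0 is near that share. Their median log2 fold change was 0.19 in SCA1 mice and -0.13 in WT S776A homozygous mice, with 6 genes (4 higher, 2 lower) and 7 genes (0 higher, 7 lower) at an unadjusted p under 0.05, where 8.25% and 9.98% of all genes were. In S776A double mice the median was 0.06, with 6 genes (2 higher, 4 lower) against 6.93% of all. In SCA1 S776A mice it was 0.10, with 2 genes (1 higher, 1 lower) against 3.93%. In SCA1 mice the lowest adjusted p was 0.185, for Ccn1, a secreted matrix protein, at 0.70 ± 0.21 (3.16 ± 0.46 against 1.95 ± 0.16 CPM, mean ± SD, n = 4), and Btg2, an antiproliferative factor, had 0.38 ± 0.11 (25.4 ± 1.28 against 19.5 ± 2.85 CPM). In homozygous mice Egr4 had -0.61 ± 0.19 and Fosl2, an AP-1 subunit, -0.83 ± 0.32, each with an adjusted p of 0.485. Between the WT batches 3 of the 40 were called, a smaller share than the 17.6% of all genes. They were higher in the second batch, the stress-induced factor Atf3 (0.69 ± 0.16), Trib1 (0.68 ± 0.18) and the ERK phosphatase Dusp6 (0.62 ± 0.16). Klf6 had the lowest adjusted p (0.00022) at 0.45 ± 0.09, under the fold limit.

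Among 18 upstream regulators, which include the CREB, SRF, MEF2 and MAP kinase genes, 0 were called in the genotype comparisons. Of all genes 0 to 0.173% were. The calcium-dependent kinase Camk4 had the lowest adjusted p in SCA1 mice (0.465, log2 -0.19 ± 0.08). Between the WT batches 1 of the 18 was called, where 17.6% of all genes were. It was the CREB coactivator Crtc2, lower in the second batch (40.4 ± 3.40 against 67.9 ± 3.26 CPM, log2 -0.75 ± 0.08, edgeR adjusted p = 4.26e-08). Of 10 glucocorticoid-responsive and 8 clock output genes, 0 were called in the genotype comparisons, against the same 0 to 0.173% of all genes. Between the WT batches 1 of the 10 (Cdkn1a, higher in the second batch) and 1 of the 8 (Per3, lower) were called. The glucocorticoid-responsive genes had a median log2 fold change of 0.47 in SCA1 S776A and 0.48 in S776A double mice. It was 0.15 in SCA1 and -0.06 in WT S776A homozygous mice. For clock output genes the median was -0.31 in S776A double mice, -0.11 in SCA1, 0.07 in SCA1 S776A and 0.00 in WT S776A homozygous mice.

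The genes whose residuals were most like the mean of the 10 were then named, as a description without a test. Btg2 had the highest r over 24 mice (0.781, 15.8 to 27.0 CPM), and it is in the list of other early genes. Fam166b (0.769), Ankrd66 (0.750), Ankub1 (0.743), Gm24430 (0.739), Gm12870 (0.723), Gm32817 (0.718), Six4 (0.713), Gm19324 (0.713) and Stoml3 (0.712) followed, of which only Ankub1 and Six4 had a mean above 1 CPM. Of the 40 other early genes, 4 had an r over 0.5 (Btg2, Ccn1 0.60, Egr4 0.58 and Sik1 0.52), 10% against 1.44% of all other genes, and their median r was -0.03. Homer1 (-0.34), Bdnf (-0.38) and Dusp6 (-0.46) were below 0, so the joint variation did not extend over the whole list.

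The mean residual of the 10 genes was also set against 22 measures of the libraries, with permutation tests over 24 mice and adjustment over the 22. None passed an adjusted p of 0.05. By r, 2 had an unadjusted permutation p under 0.05, and by rho 3. Those under it by both were the summed markers of inhibitory interneurons (r = -0.484, rho = -0.514, permutation p = 0.0279 and 0.0225, adjusted 0.436 and 0.242) and of blood (r = -0.506, rho = -0.534, permutation p = 0.0474 and 0.033, adjusted 0.436 and 0.242). By rho alone, granule cell markers were under it (rho = -0.497, permutation p = 0.0312, adjusted 0.242, with r = -0.415, permutation p = 0.0792, adjusted 0.436), with r of -0.292 and -0.800 within the batches and -0.356 without the 2 farthest mice. Within the batches r was -0.478 and -0.512 for interneurons and -0.336 and -0.739 for blood, and without the 2 farthest mice -0.436 and -0.447. The values for fragments on genes (r = -0.158, rho = -0.0583), mitochondrial share (-0.146, rho = -0.0974), choroid plexus markers (0.0113, rho = 0.0252), glucocorticoid-responsive genes (-0.257, rho = -0.237) and clock output genes (-0.171, rho = -0.118) had adjusted permutation p from 0.733 to 0.971 for r. In whole tissue, fewer cells of a type and less RNA per cell cannot be told apart, so neither these values nor those of the 10 genes are levels per cell.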

How the data were processed

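RNA was isolated from the cerebellum of 24 mice with the Qiagen miRNeasy kit and sequenced as read pairs. The authors used Trimmomatic 0.36 for trimming and STAR 2.7.2d for alignment to GRCm38.p6, and deposited, per library, raw counts of fragments per gene. The column without regard to strand was used. These counts precede the study's batch correction.

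Identifiers were matched to GENCODE M21 with versions removed (54165 matched, 67 not). Batches are not in the labels and were inferred by k-means (k = 2, 50 starts, mean silhouette 0.634) on 4 mapping shares. Counts were tested in R 4.3.3 by the edgeR 4.0.16 quasi-likelihood method (robust, TMM, expression filter by genotype, genotype and batch as terms, Benjamini-Hochberg over 22502 genes), on all 24 libraries, and calls needed a log2 fold change beyond 0.5 in size with adjusted p under 0.01. Log2 CPM used a prior count of 2. Of the 36 pairs of mice of one genotype and batch none differed by as little as counting error (chi-square per degree of freedom 8.67 to 219). Each mouse was taken as a replicate. Replicate numbers follow the order of deposition and pair no samples. Intervals and SEs cover the spread between these mice. Alternatives used DESeq2 1.42.0, sva 3.50.0 for ComBat-seq, other filters and scalings, Xist as a covariate for sex, and the removal of each mouse. The tests were run on simulated data first.

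The genes and all lists were chosen with earlier results of these data known. All 10 genes are named. From the other lists up to 3 genes per comparison with the lowest adjusted p are named, and the 10 genes most like the mean of the set. Gabra6, Calb1, Trib1, Dusp6 and the early genes with low or high correlation were named after their values were seen.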

Additional observations from a re-analysis of the deposited data

Results flagged for a closer look

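Among 66 groups of 4 mice (the 10 genes and their mean, in 6 groups), 3 held 1 mouse that stood apart from the other 3 by Dixon's criterion, where chance alone gives 3.3. Fos was low in S776A double mouse 4, at a log2 CPM of 4.28 where the other 3 had 5.34 to 5.54. Ier2 was low in WT S776A homozygous mouse 3, at a log2 CPM of 4.31 where the others had 4.54 to 4.56. The mean standardized residual of the 10 genes was high in WT S776A homozygous mouse 1, at 0.737 where the others had -0.278 to -0.205.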

How the results depend on the processing

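Over the alternatives, 0 of the 10 genes were called in the 6 genotype comparisons, also with any 1 of the 24 mice left out. Between the WT batches 0 genes were called. With each mouse left out that count was 0 to 1, the 1 being Fosb without SCA1 mouse 2 (adjusted p = 0.00872). At an adjusted p under 0.05 with no fold limit 1 gene passed, Fosb (adjusted p = 0.0265), and it did not pass without WT mouse 1, 2, 5 or 7 (adjusted p up to 0.0809) or without a filter on low counts (0.0568). The cause was not tested. The median residual SD of the 10 genes, 0.429, was 0.498 with only batch means removed and 0.509 with no means removed, since differences between genotypes then count as spread. The median r of 0.385 moved by less than its jackknife SE of 0.121 under every alternative run. Of 2273 fitted log2 values under alternatives 32 changed sign. No value of the main fit was called, and the largest that changed sign was Fosb in SCA1 S776A mice (0.603). Egr3 was not tested where CPM of at least 1 in 4 libraries was asked for, and had no adjusted p for homozygous mice with ComBat-seq and DESeq2. No paired analysis was possible because no groups share replicate numbers in the labels. With 4 mice a group and a BCV of 50.4% for Fos, SEs of about 0.53 log2 units limit what could be called.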
